A study of Mus musculus with 4 samples.

Results

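The IL-6 family cytokines, their receptors and the proteins that carry their signal were followed in mouse hepatic stellate cells. The set was a list of 10 genes: the ligands Il6, Lif, Il11 and Clcf1, the receptor chains Il6ra, Il6st, Osmr and Lifr, the transcription factor Stat3 and the feedback inhibitor Socs3. Probes were assigned by the gene name on the array or by the symbol matched through a RefSeq accession. This gave 17 probes for 9 of the 10 genes, out of 26811 gene names on the array. No probe was named or matched as Lif, which is therefore not analysed here. All 17 probes were well above background, by the scanner software's flag, on all 4 arrays.

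Cytokines of this family signal through receptor complexes that share the chain gp130, the product of Il6st. A ligand first meets its own receptor chain, the IL-6 receptor encoded by Il6ra in the case of IL-6, or it bridges gp130 with a related chain such as the LIF receptor or the oncostatin M receptor. The complex activates JAK kinases, these phosphorylate STAT3, and STAT3 induces SOCS3, which in turn blocks the receptor complex. In the liver, IL-6 is best known for driving the acute-phase response of hepatocytes, and stellate cells, the collagen-producing pericytes of the sinusoids, both secrete and sense cytokines of the family.

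The cells were of the line IMS/N, stellate cells isolated from normal 129/Sv mice and made immortal with SV40 virus, and they are 1 line in every condition. The 4 conditions were control (IMS/N alone), PA (palmitic acid, a saturated fatty acid), ADSC medium (medium conditioned by adipose tissue-derived stem cells, ADSCs), and the 2 treatments together, called both. The donors of the ADSCs were male C57BL/6J mice aged 8 to 10 weeks. How much PA was added, for how long, and with which vehicle in the control was not stated in the sources at hand. Each condition was measured on 1 array, so no difference between conditions has a replicate check, no test between conditions was run, and every value describes these arrays.

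Levels are log2 of the background-subtracted spot intensity after quantile normalization across the 4 arrays. A difference is a subtraction of levels for the same probe, and levels of different probes were not set against each other. The error given with a difference is measurement error only, taken from 245 probes printed on 10 spots of each array, and it says nothing of the variation between cultures. For a probe with 1 spot it is an SD of 0.233 for a difference at levels of 3 to 5, 0.121 at 5 to 7, 0.0794 at 7 to 9 and 0.0591 at 11 to 13. Between 67.9% and 70.3% of the 43379 spots that were not controls were well above background on each array, and no such spot was saturated. Of the stellate cell and myofibroblast markers, 7 of 10 were well above background on all arrays (Lrat, Reln and Hand2 were on none). Markers of other cell types were partly detected. Well above background on all arrays were 4 of 7 macrophage markers (Cd68, Csf1r, Cd14 and Lyz2, but Adgre1 and Ptprc on none), 2 of 5 endothelial (Kdr and Stab2, but Pecam1, Cdh5 and Lyve1 on none) and 1 of 5 hepatocyte (Hnf4a, but Alb, Ttr, Apoa1 and Cps1 on none). So were 2 of 4 biliary or epithelial markers (Krt19 and Krt7, but Epcam and Cdh1 on none) and 3 of 7 adipose markers (Fabp4, Cd34 and Pi16, but Adipoq, Lep, Plin1 and Dpp4 on none).

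Because Il6 carried the largest differences of the family, the 250 bases before its transcription start are shown first, with those of Il11 and Socs3 for comparison. They are RefSeq sequences of the gene's own strand on GRCm38.p6. Il6 lies at chr5:30012864-30013113 on the plus strand, Il11 at chr7:4778142-4778391 on the minus strand and Socs3 at chr11:117969367-117969616 on the minus strand. Capitals mark matches, on either strand, to 1 of 5 motifs: kB (3 G, any 2 bases, 3 T, then 2 C), AP-1 (TGANTCA), CRE (TGACGT), C/EBP (TTGCNNAA) and STAT (TTCNNNGAA).

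Il6: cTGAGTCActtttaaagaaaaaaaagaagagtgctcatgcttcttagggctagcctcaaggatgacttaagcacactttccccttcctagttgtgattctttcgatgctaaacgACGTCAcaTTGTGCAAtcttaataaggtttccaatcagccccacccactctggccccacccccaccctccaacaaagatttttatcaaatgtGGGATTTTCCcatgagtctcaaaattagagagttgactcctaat

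Il11: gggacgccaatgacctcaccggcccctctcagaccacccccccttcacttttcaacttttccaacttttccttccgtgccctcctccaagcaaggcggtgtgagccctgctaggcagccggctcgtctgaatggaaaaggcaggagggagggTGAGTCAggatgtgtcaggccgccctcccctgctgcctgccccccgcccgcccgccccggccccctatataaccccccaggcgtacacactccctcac

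Socs3: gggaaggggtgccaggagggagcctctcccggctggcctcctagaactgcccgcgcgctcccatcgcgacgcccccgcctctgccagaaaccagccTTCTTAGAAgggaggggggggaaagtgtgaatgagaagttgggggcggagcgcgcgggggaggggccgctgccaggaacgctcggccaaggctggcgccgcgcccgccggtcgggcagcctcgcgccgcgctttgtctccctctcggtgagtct

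The Il6 window held 4 matches, none overlapping another. They were AP-1 at 249 to 243 bases before the start, CRE at 136 to 131, C/EBP at 128 to 121, and kB (GGGATTTTCC) at 44 to 35. NF-kappaB, AP-1, CREB and C/EBP proteins are the textbook activators of Il6, and the motifs were chosen with that knowledge. Among 32851 promoter windows of the same length, kB was present in 1.41%, AP-1 in 6.75%, CRE in 6.47%, C/EBP in 9.56% and STAT in 7.02%. The Il6 window was the only 1 of the 32851 with all 4 of kB, AP-1, CRE and C/EBP. Since these motifs were chosen as known sites of Il6 activators, this cannot show that the Il6 window is unusual. It also depends on the window length. The AP-1 match, at 249 to 243 bases before the start, lies at the far edge, and a slightly shorter window would lose it. Of the other members, this Il11 window held 1 AP-1 match at 98 to 92 bases before the start and the Socs3 window held 1 STAT match (TTCTTAGAA) at 154 to 146. The window of Lif, which has no probe, held 1 AP-1 match at 228 to 222. The windows of Il6ra, Il6st, Osmr, Lifr and Stat3 held no match to these letters. In all, 9 of the 10 members had a RefSeq promoter, in 11 windows. A match is a run of letters, and binding was not measured.

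Il6, the founding cytokine of the family, was the member whose level differed most between conditions. Its probe (chromosome 5, 30346362 to 30346421 on mm9, plus strand) was printed on 10 spots of each array. The control spots lay between 5.87 and 6.21 with a median of 6.05. With PA they lay between 8.22 and 8.36 with a median of 8.31. With ADSC medium they lay between 6.51 and 6.80 with a median of 6.62, and with both between 8.90 and 9.09 with a median of 9.01. The order was control, ADSC medium, PA, and both, and no spot of one array reached the spots of the next: 100 of 100 spot pairs were ordered the same way in each of the 5 comparisons.

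**Figure D1:**
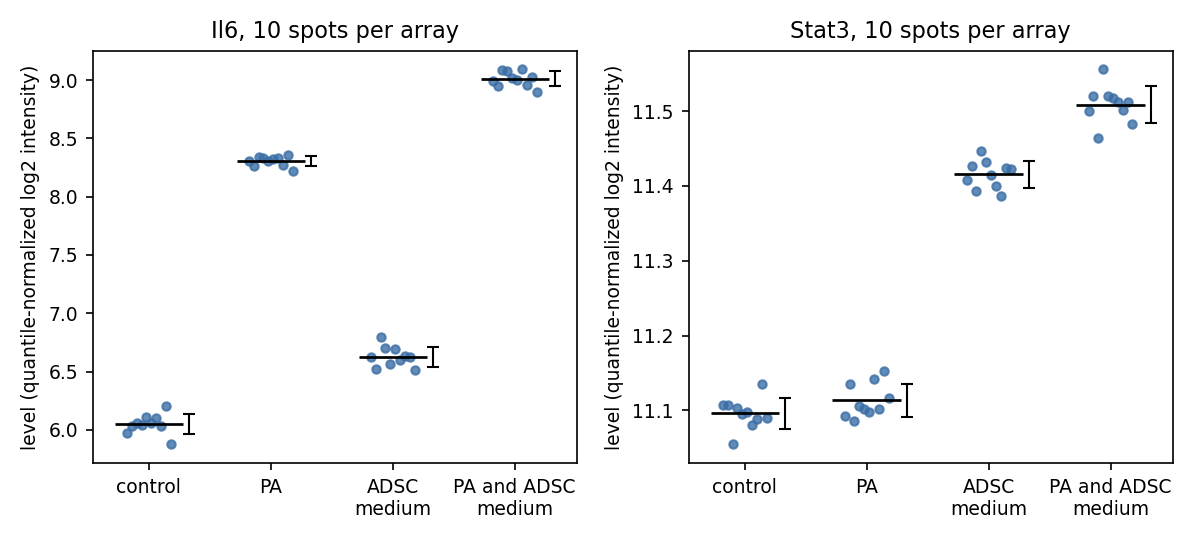
Levels of Il6 (left) and Stat3 (right) on the 10 spots of each array, as quantile-normalized log2 intensity. Points are spots, horizontal lines their means and bars 1 SD over spots of that array. The 4 arrays separate fully for Il6, while for Stat3 the control and PA spots overlap near 11.1.

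Il6 was 2.26 ± 0.03 higher with PA than in control on the log2 scale (4.78-fold; the error is that of a difference of 10-spot means), and 33 of the 18209 genes compared were further above control. With ADSC medium alone it was 0.58 ± 0.04 higher (1.49-fold), just under the 1.5-fold that counted as a difference here. With both it was 2.96 ± 0.03 above control (7.80-fold), where 15 of 18251 genes were further above. The difference of both over PA alone was 0.71 ± 0.02 (1.63-fold), and that of both over ADSC medium alone was 2.39 ± 0.03 (5.22-fold). The PA difference with ADSC medium present exceeded that without it by 0.13, since the separate log2 differences sum to 2.83. With the normexp background correction that excess was 0.28. These comparisons share arrays and are not independent of each other. In a total RNA sample, more RNA per cell and more cells making it cannot be told apart.

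The background correction changed the size of the Il6 differences. With normexp in place of the scanner software's, the differences were 1.60 for PA, 0.33 for ADSC medium, 2.22 for both against control, 0.61 for both against PA and 1.88 for both against ADSC medium. The order of the 4 conditions was the same. Before normalization the mean spot intensities of Il6 were 61.5 in control, 369.8 with PA, 91.3 with ADSC medium and 519.7 with both.

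Counted on each gene's brightest probe, Il6 was the only member at least 1.5-fold higher in any comparison, and none was 1.5-fold lower. Among the second, dimmer probes, that of Osmr passed 1.5-fold with ADSC medium, and that of Stat3 with ADSC medium and with both. In PA against control the count was 1 of 9 members higher, where 2.92% of all 18209 genes were higher and 3.27% lower. In ADSC medium against control it was 0 of 9, against 2.31% higher and 1.29% lower among 18198 genes. In both against control it was 1 of 9, against 4.68% and 3.67% of 18251 genes. In both against PA it was 1 of 9, against 5.25% and 3.72% of 18751 genes. In both against ADSC medium it was 1 of 9, against 3.54% and 3.14% of 18465 genes. At 2-fold the count was 1 of 9 in PA against control (1.09% of all genes higher, 0.599% lower), 0 of 9 in ADSC medium against control (0.533% and 0.121%) and 1 of 9 in both against control (1.81% and 0.422%). It was 0 of 9 in both against PA (1.75% and 0.507%) and 1 of 9 in both against ADSC medium (1.26% and 0.477%). The median difference over the 9 members was 0.02, 0.06, 0.25, 0.23 and 0.07 in these comparisons, and over all genes compared it lay between -0.02 and -0.01. The medians of 0.06 and 0.23 are the values of the brighter Socs3 probe, which is listed on the strand opposite to the gene. The RefSeq-matched Socs3 probe read 0.29 and 0.47 there, so these medians depend on the choice of probe.

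**Figure D2:**
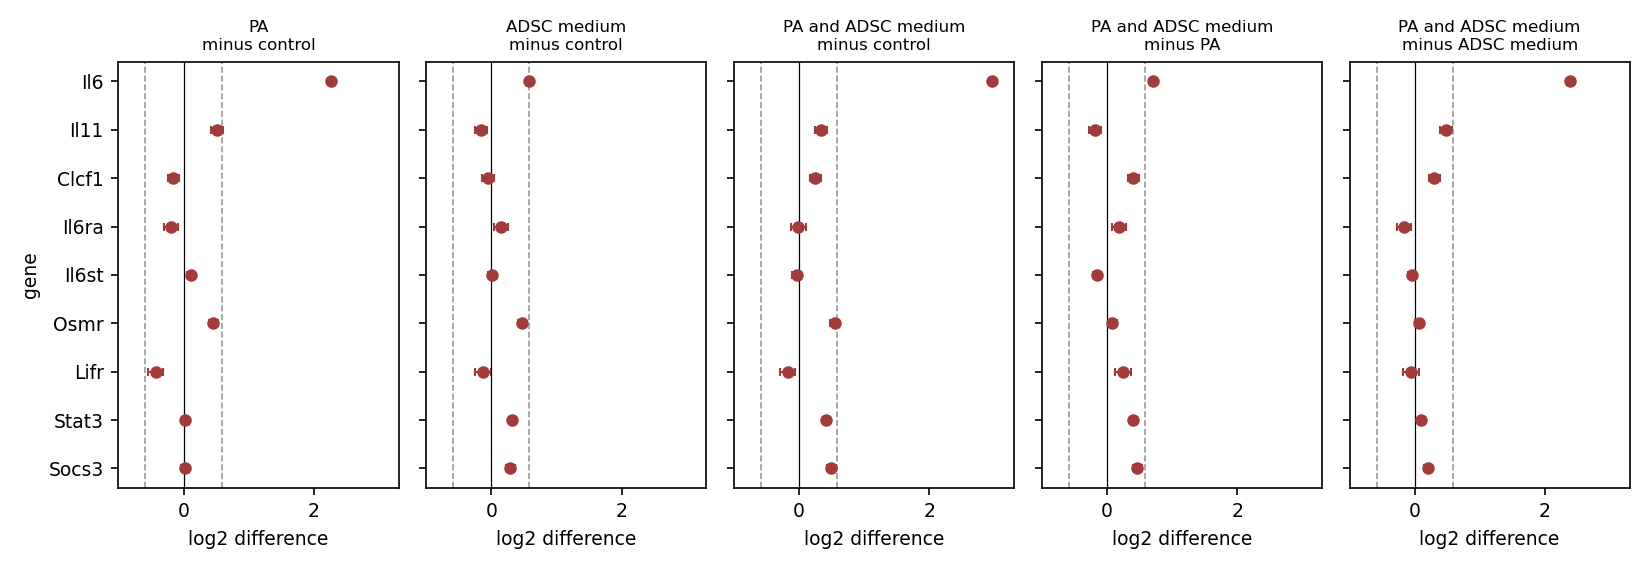
Log2 difference of each of the 9 measured members in the 5 comparisons. Points are single differences between 1 array and another, bars are the measurement SD from replicate spots, and dashed lines mark 1.5-fold. Il6 is the only gene beyond a dashed line, and Socs3 is plotted with its RefSeq-matched probe.

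Of the other ligands, Il11, a cytokine that acts on fibroblasts through its own receptor and gp130, was higher on both arrays with PA. Its level (chromosome 7, 4724847 to 4724906 on mm9) was 6.87 in control, 7.38 with PA, 6.71 with ADSC medium and 7.20 with both. PA exceeded control by 0.51 and both exceeded ADSC medium by 0.49, each with an SD of 0.09 from spots, and these differences were 0.36 and 0.29 with normexp. ADSC medium minus control was -0.15 and both minus PA was -0.18, so for Il11 the medium arrays lay below their counterparts where for Il6 they lay above. Neither PA difference reached 1.5-fold.

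Clcf1, which encodes a partner ligand of the ciliary neurotrophic factor receptor, varied less. Its level was 7.67 in control, 7.52 with PA, 7.62 with ADSC medium and 7.92 with both. The array with both treatments was the highest, 0.25 above control, 0.40 above PA and 0.30 above ADSC medium with an SD of 0.09 from spots. PA minus control was -0.15.

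**Figure D3:**
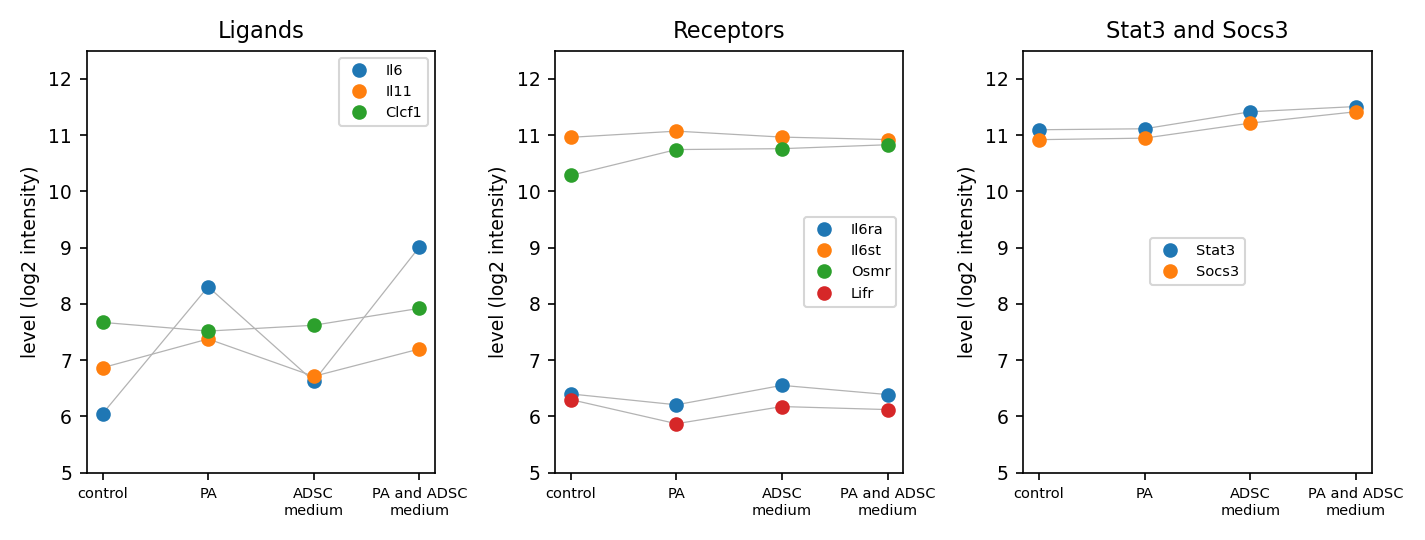
Level (quantile-normalized log2 intensity) of each member on the 4 arrays, for ligands, receptors, and Stat3 with Socs3. Each point is 1 array, lines join the same gene for reading only, and heights of different genes are not comparable. Il6 spans 6.05 to 9.01, while Il6st stays between 10.92 and 11.07.

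Among the receptors, Il6st, the shared signal-transducing chain, was the least variable member. Its level was 10.96 in control, 11.07 with PA, 10.97 with ADSC medium and 10.92 with both. Its largest difference was between both and PA, -0.15 with an SD of 0.06 from spots, and the control and ADSC medium arrays did not differ beyond that error. Il6ra, the ligand-binding chain for IL-6, was at 6.40, 6.21, 6.55 and 6.39 in the same order. Its differences from control were -0.19, 0.15 and -0.01, with an SD of 0.11 from spots. Its second probe read 5.27, 5.18, 5.38 and 5.08. Both Il6ra probes were highest with ADSC medium, but they disagreed on whether PA or both was lowest.

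Osmr, the chain that pairs with gp130 to receive oncostatin M, was lowest in control and close to level on the other 3 arrays. Its brighter probe (chromosome 15, 6763686 to 6763745 on mm9) read 10.29 in control, 10.74 with PA, 10.76 with ADSC medium and 10.83 with both. The differences from control were 0.46, 0.47 and 0.54, with an SD of 0.07 from spots. The second Osmr probe read 5.03, 5.52, 5.64 and 5.55, with differences of 0.49, 0.61 and 0.52 from control. For both probes the difference with both treatments was below the sum of the separate differences: the PA difference in the presence of ADSC medium was 0.07 for the brighter probe and -0.09 for the second, smaller by 0.39 and 0.58 than in its absence. Among the 3 treated arrays the brighter probe differed by at most 0.09.

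Lifr, the receptor chain for LIF that pairs with gp130, was read by 5 probes along its transcript. Probes closer to the 5′ end and those closer to the 3′ end gave different orders of the arrays, and the 3 probes shown span that change. They are the 3 with at least 1 reading frame free of stop codons over their 60 bases. The sequences are those in the files, with no part marked.

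Lifr 2158: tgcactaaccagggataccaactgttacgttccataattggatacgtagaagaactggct

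Lifr 2324: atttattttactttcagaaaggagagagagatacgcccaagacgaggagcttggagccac

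Lifr 3232: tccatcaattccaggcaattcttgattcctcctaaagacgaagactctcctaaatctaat

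The number in each name is the probe's start in the transcript, counted in bases from its 5′ end. The remaining probes start at 3323 and 7563. All 5 probes were lower with PA than in control, with differences of -0.46, -0.43, -0.24, -0.20 and -0.20 from the 5′ end on, with SDs from spots of 0.13, 0.12, 0.14, 0.14 and 0.25. All 5 were also higher with both than with PA alone, by 0.12, 0.25, 0.52, 0.33 and 0.54. They disagreed on ADSC medium against control, where the first and second were lower (-0.04 and -0.12) and the other 3 higher (0.32, 0.18 and 0.19). Of these differences -0.04 and 0.19 lay within the SD of their probe and -0.12 and 0.18 little beyond it. Only that of 0.32, at 3232, was well beyond its SD. The level of the brightest probe, at 2324, was 6.30 in control, 5.87 with PA, 6.18 with ADSC medium and 6.12 with both, with control the highest. At 3232 the levels were 5.28, 5.04, 5.61 and 5.57, with ADSC medium the highest.

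**Figure D4:**
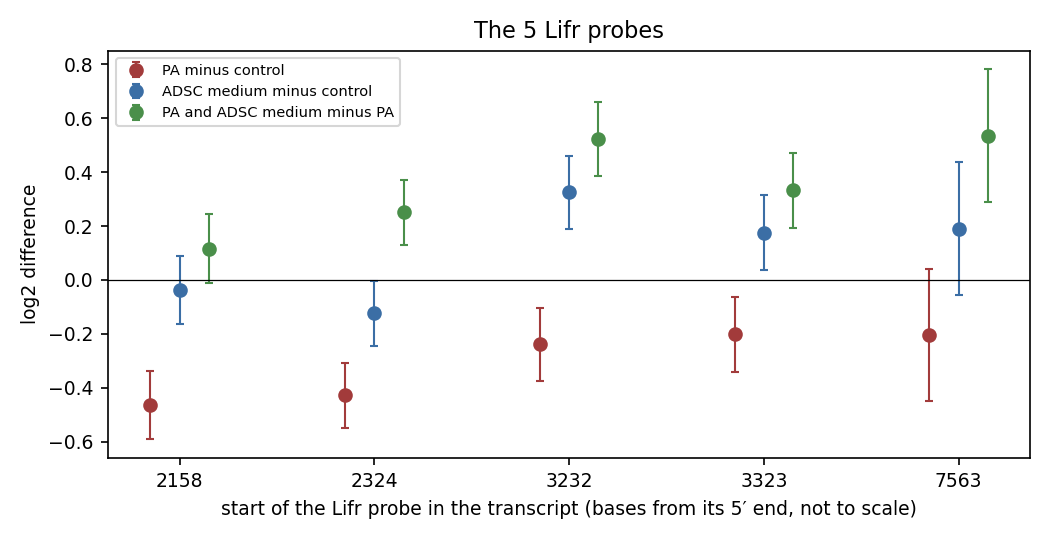
Log2 difference of the 5 Lifr probes, ordered by their start in the transcript, in 3 comparisons. Points are differences between 1 array and another and bars the measurement SD from replicate spots. PA minus control is below 0 for all 5 probes and both minus PA above 0 for all 5, while ADSC medium minus control lies on either side of 0.

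Stat3, the main transcription factor of the pathway, was higher on both arrays with ADSC medium. Its 10-spot probe (chromosome 11, 100749598 to 100749657 on mm9, minus strand) had spots from 11.05 to 11.14 in control, 11.09 to 11.15 with PA, 11.39 to 11.45 with ADSC medium and 11.46 to 11.56 with both. The control and PA arrays overlapped, PA being the higher in 68 of 100 spot pairs. The arrays with medium lay above both, and that with both treatments was the higher of the pair, in 100 of 100 spot pairs each. The differences were 0.02 for PA, 0.32 for ADSC medium, 0.41 for both against control, 0.40 for both against PA and 0.09 for both against ADSC medium, with an error of 0.01 for 10-spot means. A second, dim Stat3 probe read 2.51, 3.10, 3.23 and 3.19 and had a measurement SD of 0.33, so that its differences of 0.58, 0.72 and 0.67 from control were not precise enough to order the treated arrays.

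Socs3, the STAT3-induced inhibitor of gp130 receptors, had a pair of probes that differed. The probe matched to the gene's RefSeq transcript (chromosome 11, 117827480 to 117827539 on mm9, minus strand) read 10.92 in control, 10.95 with PA, 11.21 with ADSC medium and 11.42 with both. Its differences were 0.03, 0.29, 0.50, 0.47 and 0.20 in the order used for Stat3, with an SD of 0.06 from spots. On that probe PA minus control was within the error and the arrays with medium were higher. The brighter probe, listed under the same name (chromosome 11, 117828658 to 117828717), read 11.95, 11.81, 12.01 and 12.04, and its differences were -0.14, 0.06, 0.09, 0.23 and 0.03. The files place this probe on the plus strand, opposite to the gene, whereas 27171 of 27360 RefSeq-matched probes with a position (99.3%) lie on their gene's strand. Neither Socs3 probe differed by 1.5-fold in any comparison.

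The other genes of the pathway came from a list of 53 genes on the array. Of 52 with a value in PA against control, 4 were at least 1.5-fold higher and none lower, beside the 2.92% and 3.27% of all genes. Among them Saa3, an acute-phase serum amyloid gene, was 1.08 higher with PA, from 4.18 to 5.26. Cish, a SOCS family inhibitor, was 0.73 higher, and Relb, an NF-kappaB subunit, 0.66 higher. With normexp the difference of Saa3, a dim gene, was 0.32 and that of Cish 0.58, just under 1.5-fold.

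With ADSC medium alone, 3 of 51 were lower and none higher, beside 1.29% and 2.31% of all genes. They were the receptor genes Il31ra (-0.87) and Cntfr (-0.76), and Saa3 (-0.85). These are dim genes, at levels between 2.55 and 4.81 on these arrays, and with normexp the differences were -0.02, -0.25 and -0.14.

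With both treatments against control, 7 of 52 were higher and 2 lower, beside 4.68% and 3.67% of all genes. The largest was Nfkbiz, an atypical NF-kappaB cofactor needed for Il6 induction in macrophages, at 8.05 in control, 8.08 with PA, 8.53 with ADSC medium and 9.32 with both, 1.26 above control. It was followed by Fos, an AP-1 subunit, 0.91 higher, Saa3 0.88 and Zc3h12a, an RNase that degrades Il6 mRNA, 0.73. Of the lower genes Il31ra differed by -0.66, and by less than 0.01 in size with normexp. With normexp the Saa3 difference was 0.22 and that of Zc3h12a 0.44. All 12 regulators of Il6 transcription and mRNA and all 17 STAT3 target genes were above 0 in this comparison, with medians of 0.30 and 0.36, where 46.5% of all genes were above 0 with a median of -0.02. Of these, Nfkb1 (0.07), Zfp36 (0.005) and Ccnd1 (0.004) lay within the spot error. Icam1 (0.02), a target gene, was a bound, above background with both but not in control, and could not count as below 0. Icam1 was likewise a bound with PA alone and was left out with ADSC medium alone. The lists share Cebpd, Junb and Fos. At least 1.5-fold higher were 3 of the 12 and 4 of the 17, beside the 4.68% of all genes. The remaining lists were not wholly above 0 with both against control. Above 0 were 2 of 7 other ligands (median -0.02) and 0 of 4 other receptors (-0.36). So were 1 of 6 other JAK kinases and STATs (-0.14) and 6 of 9 inhibitors and shedding proteases (0.12). With PA alone 11 of 12 regulators and 10 of 17 target genes were above 0 (48.5% of all genes), with medians of 0.19 and 0.13. With ADSC medium alone 7 of 12 and 13 of 16 were (48.1% of all genes), with medians of 0.06 and 0.29.

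With both against PA, 5 of 52 were higher and 1 lower, beside 5.25% and 3.72% of all genes. Among the higher genes, Nfkbiz differed by 1.24, Hif1a by 0.87, Pim1 by 0.86 and Bcl6 by 0.79, the last 3 being STAT3 target genes of the list. Cntfr, which encodes the receptor chain for ciliary neurotrophic factor, differed by -0.89, and by -0.31 with normexp. Pim1 was at 7.81 in control, 7.45 with PA, 8.15 with ADSC medium and 8.30 with both, and Bcl6 at 11.14, 10.71, 11.50 and 11.51, so that both were lowest with PA. Markers of other cell types differed in this comparison in either direction. Of the macrophage list, Cd14 differed by 1.31 and Csf1r by 0.51, but Lyz2 by -0.88, Cd68 by -0.12 and Itgam by -0.68. The value of Itgam is a bound, since it was above background with PA and in control but on neither array with ADSC medium. The summed level of that list lay between 29.6 and 30.4 on the 4 arrays. This sum lets opposite differences cancel and includes Adgre1 and Ptprc, which were never above background, so it does not show that the markers were stable. The adipose marker Fabp4 differed by 1.04 and the epithelial marker Krt7 by -0.77. Stellate cell and myofibroblast markers differed in either direction too. Pdgfrb differed by 1.33, Col1a2 by 0.20 and Lhx2 by 0.04, but Des by -1.13, Acta2 by -1.02, Col1a1 by -0.11 and Vim by -0.02. The part of all these markers in the results was not tested.

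With both against ADSC medium, 5 of 52 were higher and none lower, beside 3.54% and 3.14% of all genes. Among them Saa3 was higher by 1.73, Nfkbiz by 0.79, Fos by 0.77 and Cish by 0.59. With normexp the differences of Saa3 and Cish were 0.36 and 0.41, and that of Fos was 0.58, just under 1.5-fold.

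**Figure D5:**
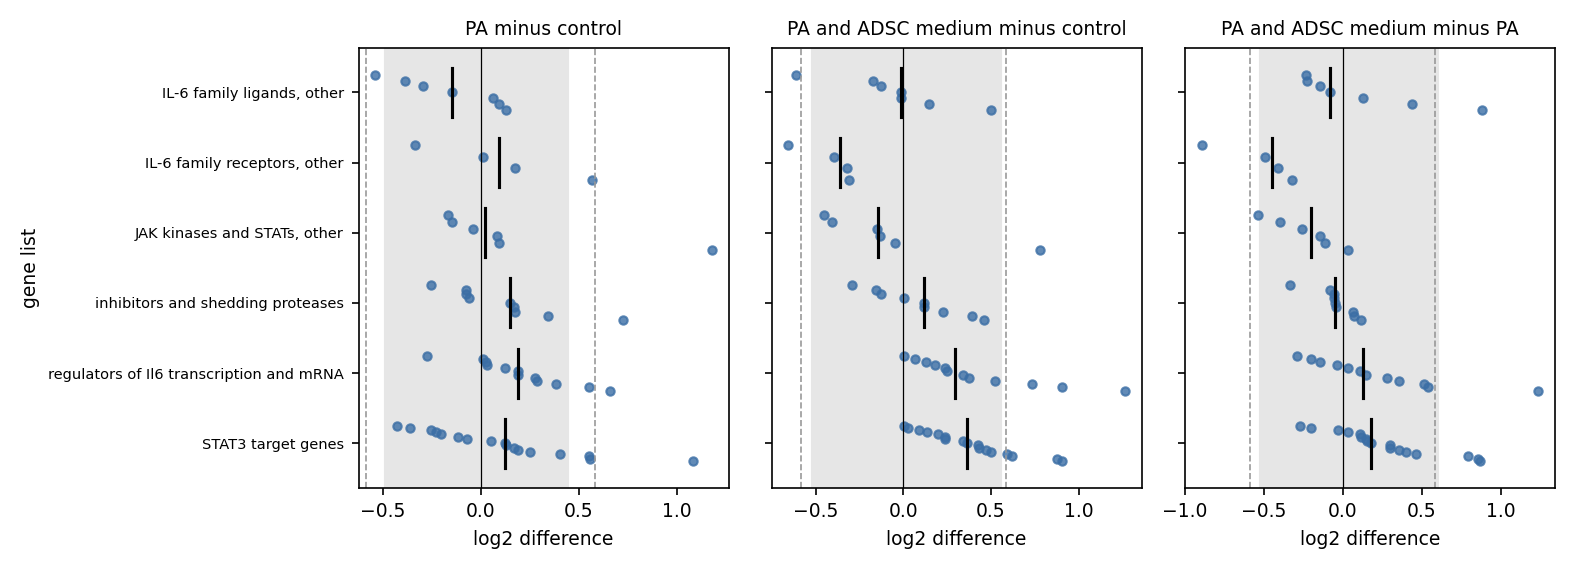
Log2 differences of the genes of 6 lists around the IL-6 pathway in 3 comparisons. Points are genes, black bars list medians, the grey band spans the 5th to 95th percentile of all genes compared and dashed lines mark 1.5-fold. In the middle panel, where the array with both treatments is set against control, all points of the regulators of Il6 and of the STAT3 target genes lie above 0. Some lie within the spot error of 0, and Icam1 is a bound that could not fall below 0. Each of the remaining lists has points below 0 in that panel.

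The authors' deposited table of probes listed as up with PA against control holds 1580 of the array's 41174 probes (3.84%), and 2 of the 17 member probes, those of Il6 and Il11, are among them. It also holds 7 of the 53 pathway genes, among them Cish, Cntfr, Fos, Lcn2, Relb and Saa3. The authors' deposited table of probes listed as up with PA and down with PA and ADSC medium holds 920 probes (2.23%), none of the 17 member probes and 1 pathway gene, Cntfr.

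The genes most like Il6 were sought among 17355 genes well above background on all arrays, by Euclidean distance over the 3 log2 differences from control. The nearest was Ccl5 at a distance of 0.227, with differences of 2.07 for PA, 0.49 for ADSC medium and 2.88 for both. It was followed by Cxcl10 (0.531), Oasl1 (0.583), Ifit1 (0.590) and Cmpk2 (0.793). This order was found with the scanner software's background correction, and distances with normexp were not computed. With normexp Il6 differed by 1.60, 0.33 and 2.22, Ccl5 by 2.04, 0.47 and 2.86, and Cmpk2 by 2.30, 0.15 and 2.02. The order of the nearest genes, with Ccl5 first, therefore need not hold under that setting. Between both and PA, Ccl5 differed by 0.81, Cxcl10 by 0.20, Oasl1 by 0.12, Ifit1 by -0.08 and Cmpk2 by -0.26, against 0.71 for Il6, so that only Ccl5 of these 5 shared the step from PA to both at that size. For the RefSeq-matched Socs3 probe the nearest were Snai2 (0.0297), Cebpb, Slc25a30, Enpp1 and Rasd2. Cebpb, a C/EBP factor, differed from control by 0.01 with PA, 0.29 with ADSC medium and 0.52 with both. For the brighter Socs3 probe the nearest named genes were Tgoln2, Tmed1 and Ptms, all within 0.02. Each likeness rests on 4 arrays and 3 differences that share the control.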

How the data were processed

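Total RNA of 4 cultures was labelled with Cy3 and hybridised to 1 single-colour Agilent array each (design 014868), read with Feature Extraction 12.1.1.1, per the file headers. The deposited intensity of a spot is the scanner software's processed signal, with background subtracted and no normalization between arrays, per the file headers. Quantile normalization is named in the series' design text and R 3.5.1 in the submitters' processing notes. The well-above-background flag is the scanner software's, per the file headers. The authors also deposited lists of probe names without values.

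Control spots and spots flagged as outliers (82 to 104 an array) were dropped, spots of a probe averaged on the log2 scale, and arrays quantile-normalized in R 4.3.3 using limma 3.58.1. Files were read there by the package data.table, release 1.17.8. Python 3.11.15, numpy 2.4.6, pandas 2.3.3 and matplotlib 3.10.9 did the rest. A probe was well above background when more than 50% of its spots were. A gene took its brightest probe, entered a comparison when it passed this on either array, and counted as different at 1.5-fold. Where only 1 array passed, a dimmer value under that array's lowest passing level was raised to it. If the passing array was then not the higher one, the gene was left out of that comparison. Probe positions are as deposited (mm9). Only the counting of differences was tested on simulated data, with large changes planted in bright genes. Outlier removal, spot averaging, normalization and the rule for dim values were not tested in this way.

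Members and lists were chosen with earlier results of these data known. All members were named. Of the other pathway genes, the 6 largest differences of at least 1.5-fold in each comparison, above background on both arrays, were named (some are counted but not reported by name here), and for Il6 and Socs3 the 5 nearest genes. The marker genes with values and the genes of the authors' lists were named after their values were seen. Alternatives were 75th percentile scaling, normexp (offset 50), the mean of a gene's detected probes, no filter, and 2-fold. The RefSeq-matched Socs3 probe was an alternative added after seeing the data.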

Additional observations from a re-analysis of the deposited data

Results flagged for a closer look

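For Clcf1 and Lifr, differences pointed in opposite directions without and with the other treatment, each by more than the spot SD. The PA differences of Il6st (0.11 and -0.04) and of the brighter Socs3 probe (-0.14 and 0.03) also changed sign, but the one with medium lay within that SD. So did those of the second Osmr probe (0.49 and -0.09), the dim Stat3 probe (0.58 and -0.05) and the Lifr probe at 7563 (-0.20 and 0.14). The ADSC medium differences of Clcf1, Il6st, the second Il6ra probe and the Lifr probe at 2158 changed sign as well, with at least 1 of each pair within the SD. For Clcf1, PA minus control was -0.15, while both treatments minus ADSC medium was 0.30, on a log2 scale with an SD of 0.09 from replicate spots. For the brightest Lifr probe, at 2324 in the transcript, ADSC medium minus control was -0.12, while both treatments minus PA was 0.25, with an SD of 0.12. The 3 Lifr probes further towards the 3′ end were higher in both comparisons, as was the mean of the probes for ADSC medium minus control (0.11). Neither difference between effects was tested, since each condition has 1 array.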

How the results depend on the processing

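Of 45 member differences, 185 values were computed under alternatives: 154 moved by no more than the spot error, 31 moved more, and 7 had the opposite sign. The 154 include values that could not move. Dropping the filter changes no member, since every member probe was well above background. The mean of detected probes changes no member with 1 probe (Il6, Il11, Clcf1 and Il6st). The 154 are therefore no measure of robustness. None of the 7 was 1.5-fold or more, and the largest was 0.18 in size. Il6 stayed at least 1.5-fold higher wherever it was so, except that at 2-fold 0 members were higher with both than with PA. The counts of pathway genes depended more on the setting. At 2-fold, 2 were higher with PA, 0 lower with ADSC medium, 1 higher and 0 lower with both against control, 1 higher and 0 lower against PA, and 1 higher against ADSC medium. With normexp, 2 were higher with PA, 0 lower with ADSC medium, 4 higher and 0 lower with both against control, 0 lower against PA, and 2 higher against ADSC medium. With 75th percentile scaling 1 was lower with PA and 1 lower with both against control. With the mean of detected probes 2 were lower with both than with PA. The mean of detected probes turned the sign for Lifr (0.11 with ADSC medium and 0.04 with both, against control) and for Osmr (-0.01 with both against ADSC medium), as their probes differ. The RefSeq-matched Socs3 probe turned the PA difference to 0.03. Why normexp lowered the counts was not tested. Differences of genes at levels under 5 are limited by spot error. No paired analysis was possible because each condition has 1 array and the labels carry no replicate numbers.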
